A study of Mus musculus with 24 samples.

Results

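The genes described here carry glucose into the heart muscle cell, break it down to pyruvate, and decide whether pyruvate leaves as lactate or enters the mitochondrion. They were picked by symbol, for their place in the pathway, as 33 genes out of 24958 named genes in the table, and every one of the 33 had a row. The choice was made with earlier results of these data known. A mean value of at least 10 was reached by 32 of them, and Aldoc (values of 0 to 13.1 over the 24 libraries) was not tested. The animals were C57BL6/J mice, and the tissue was the left ventricle at 24 months of age. Females were intact (Ctrl) or ovariectomized at 12 months (Ovx), and both kinds were also studied with an infusion of angiotensin II (AngII) at 1.5 mg/kg/day for 28 days from a subcutaneous minipump (Ctrl + AngII and Ovx + AngII). Males were intact (Male Ctrl) or gonadectomized at 12 months (Male Gx), and no male received AngII. Each of the 6 groups had 4 libraries. The study's methods, which describe female mice, give pools of RNA from 2 mice for the ventricle libraries, and this was assumed for the males. The study states that mice without AngII had no vehicle-filled pump, that the mice were not all killed at the same hour, and that 1 mouse of 24 months given AngII was sacrificed early. How that animal entered the pools is not given in the sources used here. The p-values measure the spread between such pools.

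Glucose enters cardiomyocytes through GLUT1 and the insulin-responsive GLUT4, and is trapped by hexokinase. Phosphofructokinase is the first committed step of glycolysis, and the bifunctional PFKFB enzymes set the level of fructose 2,6-bisphosphate, its activator. Pyruvate is reduced to lactate by lactate dehydrogenase, or imported into mitochondria and oxidized by pyruvate dehydrogenase, which the PDK kinases switch off. The adult heart burns mostly fatty acids, and many of these steps have a muscle isozyme next to an isozyme that is more common in other or in fetal tissues.

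The values are the normalized gene values of the authors, put on one scale for all 24 libraries. The shift that this took out of the deposited values was -0.28 on the log2 scale for the median gene of Ctrl + AngII against Ctrl, -0.08 for Ovx + AngII against Ovx and -0.36 for Male Ctrl against Ctrl. Deposited values summed to 19358943 to 25889811 per library, with 15231 to 16604 genes above 0. The depth estimated from the lowest values, relative to the median library, ran from 0.454 in Ctrl + AngII library 40 to 1.88 in Ctrl library 38. Cardiomyocyte markers were abundant (12 markers, summed value of 2575210 to 3139970 in the female libraries), whereas 10 skeletal muscle markers summed to 54.9 to 127 there. The effect of leaving out libraries 38 and 40 is given where it changes a count.

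The promoters of 2 members are shown because Ldhb fell with AngII with and without ovaries, and Pgam1 rose in Ovx mice. Each window holds 240 bases, from 250 to 11 bases before the RefSeq start (GRCm38.p6), written 5′ to 3′ on the gene's strand. Motifs were searched on both strands and are in capitals. GGGCGG is the GC box. The TATA box was searched as TATAAA. The core of the hypoxia response element was searched as ACGTG. The E-box, CACGTG, contains that core, so its matches count under both. No GENCODE exon lies in these windows.
Ldhb, chr6:142507968-142508207, minus strand: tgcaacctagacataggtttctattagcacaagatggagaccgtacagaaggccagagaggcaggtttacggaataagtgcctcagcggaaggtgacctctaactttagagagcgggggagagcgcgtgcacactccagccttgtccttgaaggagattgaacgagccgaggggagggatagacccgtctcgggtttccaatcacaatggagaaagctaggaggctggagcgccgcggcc
Pgam1, chr19:41911621-41911860, plus strand: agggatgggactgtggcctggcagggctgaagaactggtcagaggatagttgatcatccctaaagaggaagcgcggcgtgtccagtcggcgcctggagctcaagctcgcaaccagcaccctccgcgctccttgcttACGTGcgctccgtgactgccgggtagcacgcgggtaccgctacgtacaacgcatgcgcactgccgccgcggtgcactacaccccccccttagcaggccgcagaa
The Ldhb window held none of the motifs, and the Pgam1 window 1 ACGTG. RefSeq had promoter windows for 32 members, 52 windows in all, and 21 of these genes had a GC box in at least 1 window. GC boxes were in 48.1% of the members' windows and in 31.5% of all 32534 windows of the same length. ACGTG was in 34.6% of the members' windows against 16% of all windows, CACGTG in 11.5% against 5.7%, and TATAAA in 1.92% against 12%. The 52 windows came from 32 genes, so genes with more than 1 window counted more than once. The windows were not matched for base content or for the level of the gene. These shares are therefore not a test of the pathway. These matches describe letters and not binding.

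Within intact females, the members spanned a wide range of levels per kb of transcript (rescaled value per kb, mean ± SD, n = 4). Aldoa, the muscle aldolase, was the highest at 49312 ± 1330.0, followed by Gapdh, the glyceraldehyde phosphate dehydrogenase, at 45095 ± 3547. The Ctrl libraries of these neighbours overlapped, and Ldhb, the heart lactate dehydrogenase subunit, came next at 28598 ± 1727. For most steps the muscle isozyme was the more abundant. Pfkm, muscle phosphofructokinase, reached 9150.0 ± 327 per kb, Pfkl, the liver form, 1056 ± 32.6, and Pfkp, the platelet form, 355 ± 27.8. Eno3, muscle enolase, stood at 16341 ± 562 against 1502 ± 120.4 for Eno1, and Pgam2, muscle phosphoglycerate mutase, at 12986 ± 859.7 against 1378 ± 216 for Pgam1. Eno1 shares sequence with the near-identical copy Eno1b, so its level is uncertain. GLUT4 (Slc2a4) was at 4637 ± 95.1 and GLUT1 (Slc2a1) at 189.7 ± 6.56. The lowest tested members were Pfkp, Pfkfb1, Slc2a1 and Pfkfb3, and Hk1 (1593 ± 79.5) and Hk2 (1874 ± 98.3) stood side by side.

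**Figure D1:**
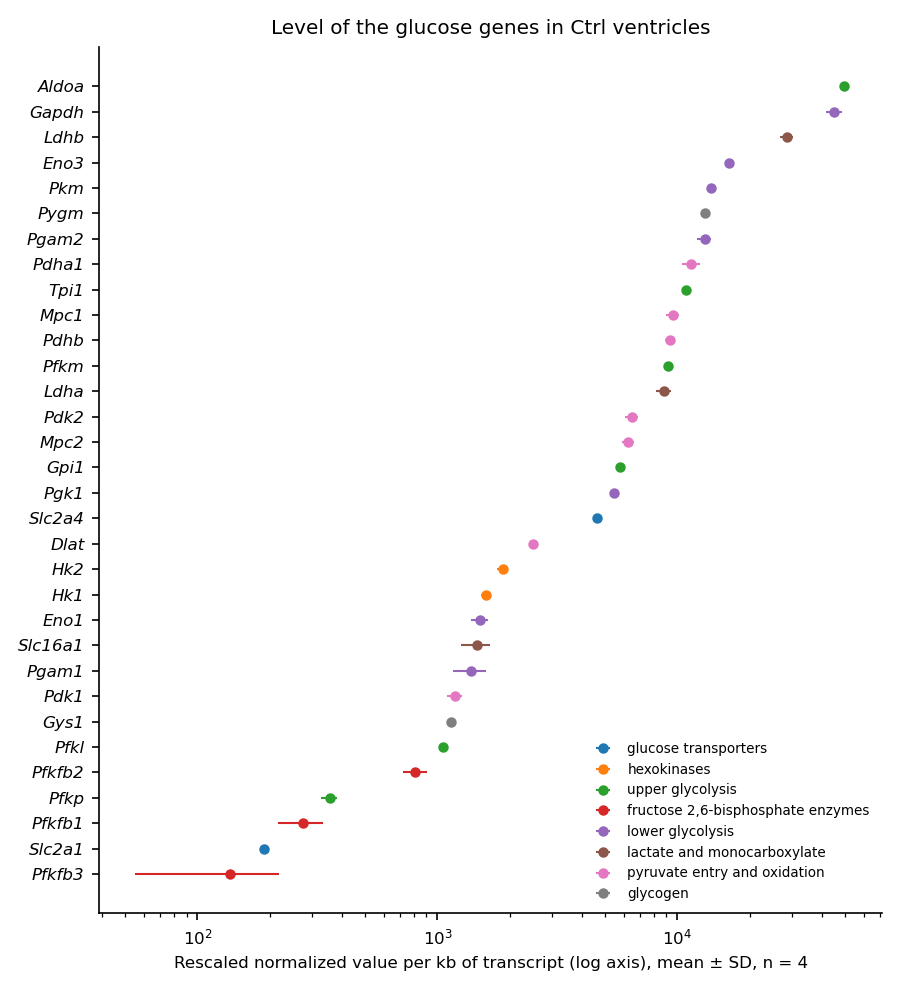
Rescaled value per kb of transcript (log axis) of the 32 tested genes in the 4 Ctrl libraries, with points for the mean, bars for the SD and colours for the role of each gene. Aldoa, Gapdh and Ldhb stand at the top, and Pfkp, Pfkfb1, Slc2a1 and Pfkfb3 at the bottom.

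AngII moved a minority of these genes, and isozymes of the same step did not always move together. With ovaries in place, 2 genes rose (Pfkp and Hk1) and 8 fell (Slc2a4, Pfkm, Pfkfb1, Eno3, Ldhb, Pdha1, Pdk2 and Pygm) at the threshold of 0.05 on the adjusted p, while 22 did not pass. After ovariectomy, 3 rose (Pfkp, Pfkfb2 and Pgam1) and 7 fell (the same 8 without Eno3), and again 22 did not pass. The 7 genes that fell in both settings were 87.5% of the 8 and 100% of the 7. The 2 comparisons share no library in their group means, but a single fit to all female libraries gave the spread for both. Their calls are therefore not independent. The Pdha1 call in Ctrl, for example, was also lost when certain single Ovx or Ovx + AngII libraries were left out. Over all genes tested, 244 fell in both, which is 52.4% of those that fell in Ctrl and 34.8% of those that fell in Ovx. Whether the members differ from other genes in this was not tested. With AngII, 31.2% of the tested members passed in Ctrl against 8.17% of all 13816 genes (4.8% higher, 3.37% lower), and 31.2% in Ovx against 10.2% (5.09% higher, 5.08% lower). Because the members were chosen with earlier results of these data known, these shares are not a test of the pathway. These members are highly expressed, which bears on the count. Where the mean value was 1000 or more, 14.4% of genes passed in Ctrl and 18.1% in Ovx. Of the 29 members with such a mean value, 31.0% passed in each setting. Genes and members were not matched for level above 1000. The median SE was 0.062 for these members and 0.071 for all such genes. The members' median change was -0.02 in Ctrl and -0.04 in Ovx, beside -0.01 and 0.01 for all genes.

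Most changes were small. In Ctrl, 26 of 32 members lay within 0.25 of 0 on the log2 scale, and in Ovx 25 did. A change of at least 1 in size together with the adjusted p, the thresholds of the study, was met in Ctrl by Pfkp and Pfkfb1 (1.19% of all genes met it) and in Ovx by Pfkfb1 alone (1.11%). The libraries did not overlap for 3 members that were higher and 10 that were lower in Ctrl + AngII (12.8% of all genes did not overlap in that comparison, 6.9% higher and 5.91% lower). In Ovx + AngII they did not overlap for 5 that were higher and 9 that were lower (16.5% of all genes, 7.65% higher and 8.82% lower). At an unadjusted p under 0.05 there were 17 members in Ctrl (21.6% of all genes) and 14 in Ovx (25.1%). An exact permutation test of a single gene over the 70 labellings can go no lower than 0.0286, which every member whose libraries did not overlap reached. Libraries without overlap always give that value, so it adds nothing to the counts of overlap. The small falls in Ctrl lay near the threshold. With all libraries 8 genes fell, and 4 fell without Ctrl library 37, without Ctrl library 38, without Ctrl + AngII library 40 or without Ctrl + AngII library 42. With any 1 library left out, the change stayed at -0.22 to -0.17 for Pfkm, -0.23 to -0.16 for Slc2a4, -0.26 to -0.18 for Pdk2 and -0.24 to -0.14 for Pdha1. Without libraries 38 and 40 together, 2 fell (Pfkfb1 and Eno3), and without libraries 49 to 54, the ones numbered apart from the rest of their group, 3 fell in Ctrl (Pfkfb1, Eno3 and Ldhb) and 4 in Ovx (Pfkm, Pfkfb1, Ldhb and Pygm). With the values as deposited, where the median gene is shifted by -0.28 in Ctrl, the same 8 genes changed by between -0.47 (Pfkm) and -1.29 (Pfkfb1), Pfkp by 0.78 and Hk1 by 0.13.

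**Figure D2:**
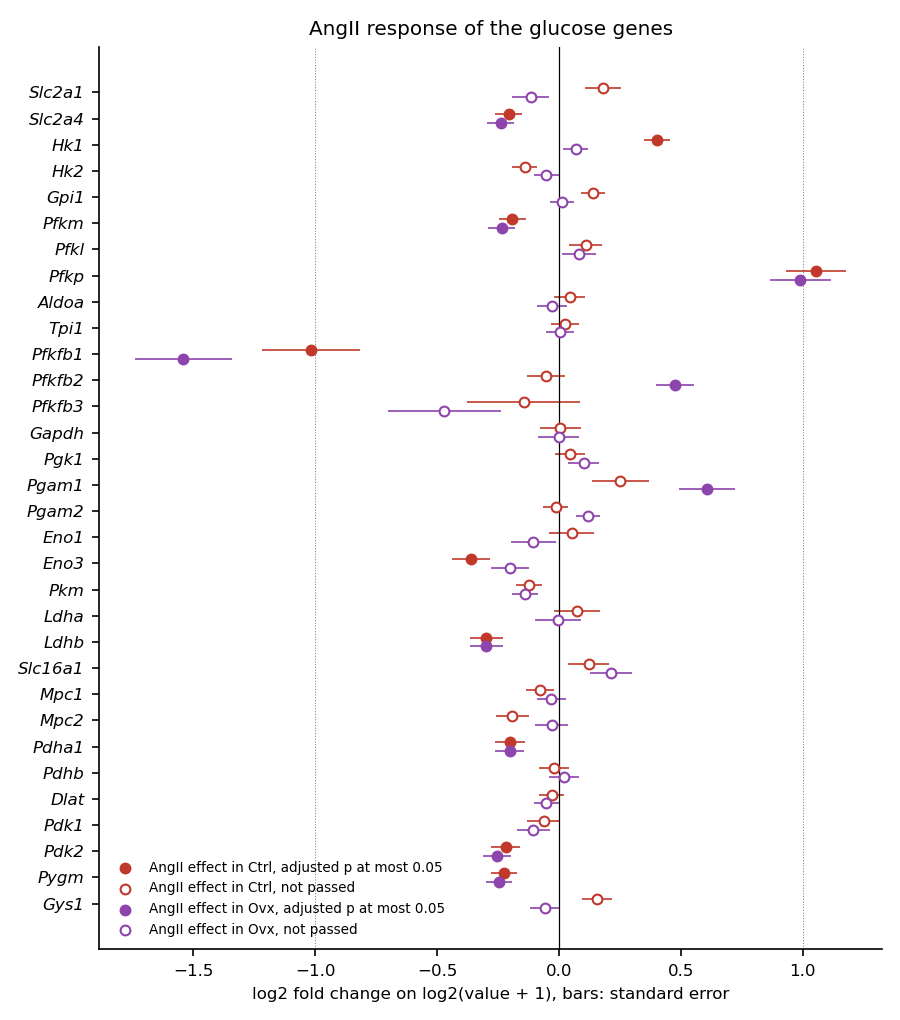
Log2 fold change with AngII of the 32 tested genes in Ctrl (red) and Ovx (purple) ventricles, with bars for the standard error and filled points where the adjusted p was at most 0.05. Pfkp lies near 1 and Pfkfb1 at or below -1 in both, and most other points lie near 0.

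The largest rise in the set was that of Pfkp, the platelet phosphofructokinase (chr13:6579874-6649060, GRCm38). Its values were 1303, 1555, 1496 and 1534 in the Ctrl libraries and 3408, 2547, 3536 and 2829 in the Ctrl + AngII libraries. In Ovx they were 1408, 1403, 1322 and 1643, and in Ovx + AngII 2195, 2794, 3601 and 3031. Every AngII library lay above every library without AngII. The log2 change was 1.05 ± 0.12 (SE, n = 4 per group, adjusted p = 3.2e-05) in Ctrl and 0.99 ± 0.12 (adjusted p = 6.1e-05) in Ovx. Both calls at adjusted p held without any 1 library, while the size fell below 1 in Ctrl without library 37 or 42 (to 0.98 without 42) and went above 1 in Ovx without library 46, 47 or 53. The exons of Pfkp overlap those of Pitrm1 on the opposite strand, whose changes were -0.07 (adjusted p = 0.63) and -0.14 (adjusted p = 0.22).

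Pfkm, the muscle form and the most abundant of the 3, went the other way. Its values were 27262, 26674, 26396 and 25040.0 in Ctrl and 21818, 23819.5, 23163 and 23465 in Ctrl + AngII, a change of -0.19 ± 0.05 (adjusted p = 0.037). In Ovx they were 25055, 27585, 28923 and 24711 and with AngII 22726, 22634, 22261 and 22466, a change of -0.24 ± 0.05 (adjusted p = 0.0095). The groups did not overlap in either setting, but the call in Ctrl was lost without library 37, 38, 39, 40, 42 or 52 (adjusted p up to 0.11). Pfkl, the liver form, had 3851 to 4109 in Ctrl and 3727 to 4877 with AngII and did not pass (0.11 in Ctrl and 0.08 in Ovx).

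Pfkfb1, which in rodents is known from liver and skeletal muscle and both makes and removes fructose 2,6-bisphosphate (chrX:150587445-150643878), fell the most of all members. It had 569, 497, 507 and 333 in Ctrl and 163, 271, 299 and 214 in Ctrl + AngII, with no overlap. In Ovx it had 393, 488, 380.1 and 478 and in Ovx + AngII 193, 158, 149 and 105, again with no overlap. The change was -1.02 ± 0.20 (adjusted p = 0.0031) in Ctrl and -1.54 ± 0.20 (adjusted p = 8.0e-05) in Ovx. The call at adjusted p held without any 1 library, and the change in Ctrl then ranged from -1.18 to -0.85. It was smaller than 1 in size without library 37, 38, 39, 40 or 52, and -0.85 without library 40. Apex2, a DNA repair gene on the opposite strand, shares exon sequence with Pfkfb1 in the full annotation, and it changed by -0.01 (adjusted p = 0.99) in Ctrl and fell by 0.72 (adjusted p = 0.0082) in Ovx. The kit keeps the strand of each RNA, but whether the quantification used it is not given in the sources used here.

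Pfkfb2, the heart form of that enzyme (chr1:130689043-130729253), rose with AngII in Ovx: it had 3063, 2719, 2989.8 and 2464 without and 4052, 3656, 3969 and 3892 with the infusion. The change was 0.47 ± 0.08 (adjusted p = 6.4e-04), and the groups did not overlap. In intact females the values were 3442, 3394, 3283 and 4181 without and 3626, 3553, 3297 and 3246 with AngII, which overlapped (-0.05 ± 0.08, adjusted p = 0.75). Exons of Pfkfb2 overlap Yod1 on the opposite strand, which had -0.37 (adjusted p = 0.45) in Ctrl and 0.19 (adjusted p = 0.72) in Ovx. Pfkfb3, the inducible form, did not pass. It had 423, 569, 553 and 535 in Ovx and 405, 409, 306 and 378 in Ovx + AngII, which do not overlap, but the adjusted p was 0.21 for a change of -0.47 ± 0.23. That SE comes from the spread within all female groups. It includes Ctrl library 39, at 1200 against 407 to 511 in the rest of Ctrl.

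**Figure D3:**
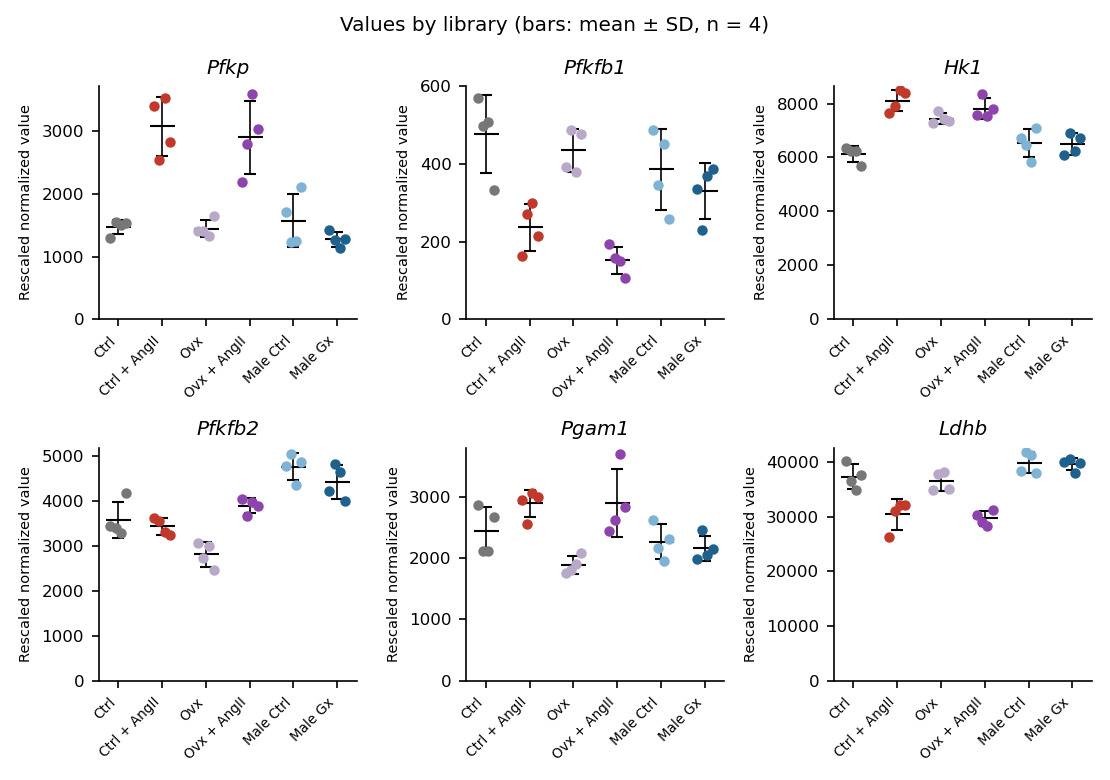
Rescaled normalized value in each library (points) of Pfkp, Pfkfb1, Hk1, Pfkfb2, Pgam1 and Ldhb in the 6 groups, with bars for the mean ± SD (n = 4). Pfkp is above and Pfkfb1 and Ldhb are below their controls in both AngII groups, Hk1 is lowest in Ctrl and in males, and Pfkfb2 has its highest means in males.

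Of the 2 glucose transporters and 2 hexokinases, Slc2a4 passed in both settings, Hk1 in Ctrl, and Slc2a1 and Hk2 in neither. Slc2a4, encoding GLUT4, fell from 12011, 11697, 11682 and 11425 in Ctrl to 9288, 10451, 10180.5 and 10739 in Ctrl + AngII (-0.21 ± 0.06, adjusted p = 0.027). In Ovx it fell from 10354, 12055, 11508 and 11491 to 10049.7, 9435, 9716 and 9243 (-0.24 ± 0.06, adjusted p = 0.0092). No AngII library reached the lowest library of its control group, although the call in Ctrl was lost without library 37, 38, 40 or 42 (adjusted p up to 0.096). Slc2a1, encoding GLUT1, had 600.4 to 649.5 in Ctrl and 675 to 730.1 with AngII, without overlap, but did not pass (0.18 ± 0.08, adjusted p = 0.16). In Ovx its change was -0.12 ± 0.08 (adjusted p = 0.36).

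Hk1, the broadly expressed hexokinase (chr10:62268855-62379920), rose in intact females, from 6363, 6243, 6253 and 5684 to 7648, 7916, 8501 and 8385 (0.40 ± 0.05, adjusted p = 7.4e-05). The groups did not overlap, and the call held without any 1 library. With the values as deposited the change was 0.13, at the threshold (adjusted p = 0.049). In Ovx the values were 7266, 7725, 7421 and 7373 without and 7585, 8355, 7523 and 7795 with AngII, and the change of 0.07 ± 0.05 (adjusted p = 0.45) did not pass. Hk2, the insulin-regulated muscle hexokinase, had 9927 to 11129.8 in Ctrl and 9083 to 9674 in Ctrl + AngII, a change of -0.14 ± 0.05 that did not pass (adjusted p = 0.11).

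Gapdh, Aldoa, Tpi1, Pgk1, Gpi1 and Pkm, central enzymes of glycolysis, did not pass in either setting. Gapdh had a change of 0.01 ± 0.08 in Ctrl (95% interval -0.17 to 0.18) and 0.00 ± 0.08 in Ovx (95% interval -0.18 to 0.17). For Aldoa the intervals were -0.09 to 0.18 and -0.16 to 0.10, and for Tpi1, triose phosphate isomerase, -0.09 to 0.14 and -0.12 to 0.12. Pgk1, phosphoglycerate kinase, had -0.09 to 0.18 and -0.03 to 0.23, and Gpi1, glucose phosphate isomerase, 0.04 to 0.24 (adjusted p = 0.096) and -0.09 to 0.12. Pkm, pyruvate kinase, had the most negative values of these (-0.12 ± 0.05, adjusted p = 0.17, and -0.14 ± 0.05, adjusted p = 0.1) and did not pass. The highest upper bound among these 6 genes was 0.24 on the log2 scale, and the lowest lower bound was -0.25, for Pkm in Ovx.

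Below phosphofructokinase, a mutase and an enolase passed in 1 setting each. Pgam1, the non-muscle mutase (chr19:41911871-41918665), had 1754, 1799, 1897 and 2085 in Ovx and 2443, 2622, 3708 and 2836 in Ovx + AngII. It rose by 0.61 ± 0.12 (adjusted p = 0.0023), and the call held without any 1 library. In intact females it had 2863, 2116, 2124 and 2679 and, with AngII, 2952, 2561, 3063 and 2994. These groups overlapped and the change of 0.25 ± 0.12 (adjusted p = 0.21) did not pass. Pgam2, the muscle mutase, did not pass in either (-0.01 and 0.12). Eno3, the muscle enolase, fell in Ctrl from 26392, 24449.7, 25270.3 and 26115 to 16853, 21462, 19797 and 21902 (-0.36 ± 0.08, adjusted p = 0.0072) with no overlap. In Ovx its libraries gave 21685, 24896, 24638 and 23553 and 20438, 21539.5, 18073 and 22515 (-0.20 ± 0.08, adjusted p = 0.12), which did not pass. Eno1 did not pass (0.05 and -0.11).

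Ldhb, the lactate dehydrogenase subunit typical of heart, fell in both settings. It had 40182, 36493, 34824 and 37666 in Ctrl and 26273, 31007, 32179 and 32156 in Ctrl + AngII. In Ovx it had 34915, 37865, 38089.9 and 35058 and in Ovx + AngII 30361, 28951, 28211 and 31218. Neither pair of groups overlapped, and the change was -0.30 ± 0.07 (adjusted p = 0.0091) in Ctrl and -0.30 ± 0.07 (adjusted p = 0.0082) in Ovx. The call in Ctrl held without any 1 library, and was lost without libraries 38 and 40 together (adjusted p = 0.056). Ldha, the subunit typical of glycolytic muscle, had changes of 0.07 ± 0.09 and 0.00 ± 0.09, and Slc16a1, the monocarboxylate transporter MCT1, of 0.12 ± 0.09 and 0.21 ± 0.09. Neither passed.

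Of the 7 genes of pyruvate import and oxidation, 2 fell in each setting and 5 did not pass. Pdha1, the catalytic E1 subunit of pyruvate dehydrogenase, had 36597, 32342, 29759 and 31609 in Ctrl and 26664, 28657, 29360.4 and 28418 with AngII (-0.20 ± 0.06, adjusted p = 0.045). In Ovx it had 31797, 33018, 31757 and 30187 and 26445, 28602, 27359.9 and 27791 (-0.20 ± 0.06, adjusted p = 0.038). The groups did not overlap, but the call was close to the threshold and was lost without any of 12 of the 16 libraries in Ctrl (adjusted p up to 0.15) and without any of 8 in Ovx (up to 0.12). Pdk2, a kinase that inactivates the complex, fell in both settings. It had 13444 to 15594 in Ctrl and 11973 to 13047 with AngII (-0.22 ± 0.06, adjusted p = 0.028), and 13634 to 15539 in Ovx and 11368 to 13100.0 with AngII (-0.25 ± 0.06, adjusted p = 0.0094). In Ctrl the Pdk2 call was lost without library 37, 38, 40, 41, 42 or 51 (adjusted p up to 0.10). Pdhb and Dlat, further subunits, Pdk1, another kinase, and Mpc1 and Mpc2, the mitochondrial pyruvate carrier, had changes between -0.19 and 0.02.

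Glycogen was represented by Pygm, muscle glycogen phosphorylase, and Gys1, muscle glycogen synthase. Pygm fell from 38705, 38029, 36663 and 36646 to 30280.5, 32343, 33168 and 32466 in Ctrl (-0.23 ± 0.05, adjusted p = 0.011). In Ovx it fell from 37207, 37169.5, 41141 and 35449 to 32406, 32387, 31019 and 31245 (-0.25 ± 0.05, adjusted p = 0.0056). No libraries overlapped, and the call held without any 1 library, while in Ctrl it was lost without libraries 38 and 40 together and without libraries 49 to 54 (adjusted p up to 0.096). Gys1 did not pass (0.16 ± 0.06 in Ctrl and -0.06 ± 0.06 in Ovx).

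The ratio of 2 genes within a library does not depend on the scaling of that library, and 10 pairs of isozymes or transporter isoforms could be formed. These ratios are given as values with no test. Pfkm and Pfkfb2 each enter more than 1 pair, so the pairs are not separate items. How often the ratios of other gene pairs do not overlap was not computed, so the counts below have no baseline. In Ctrl + AngII the ratio was above every Ctrl library for 5 pairs, below for 0 and overlapping for 5. In Ovx + AngII it was above every Ovx library for 4 pairs, below for 1 and overlapping for 5. The log2 ratio of Pfkp to Pfkm went from -4.16 ± 0.16 to -2.92 ± 0.27 (mean ± SD, n = 4) in Ctrl, a 2.37-fold difference, and from -4.20 ± 0.23 to -2.98 ± 0.31 in Ovx, a 2.34-fold difference. That of Hk1 to Hk2 went from -0.75 ± 0.08 to -0.21 ± 0.08 in Ctrl and from -0.47 ± 0.07 to -0.35 ± 0.07 in Ovx, where the libraries overlapped. Ldha to Ldhb went from -1.27 ± 0.17 to -0.90 ± 0.15 in Ctrl, without overlap, and from -1.26 ± 0.11 to -0.96 ± 0.14 in Ovx, with overlap. Eno1 to Eno3 differed by 0.41 in Ctrl without overlap and by 0.10 in Ovx with overlap, and for Eno1 the near-identical copy limits this ratio. Pgam1 to Pgam2 differed by 0.49 in Ovx without overlap, and by 0.27 in Ctrl with overlap. The widest gap was that of Pfkfb2 to Pfkfb1 in Ovx, from 2.70 ± 0.32 to 4.72 ± 0.36, a 4.06-fold difference, and this ratio overlapped in Ctrl (0.97). Pfkfb3 to Pfkfb2 was the pair that was lower in Ovx + AngII, with a difference of -0.95.

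**Figure D4:**
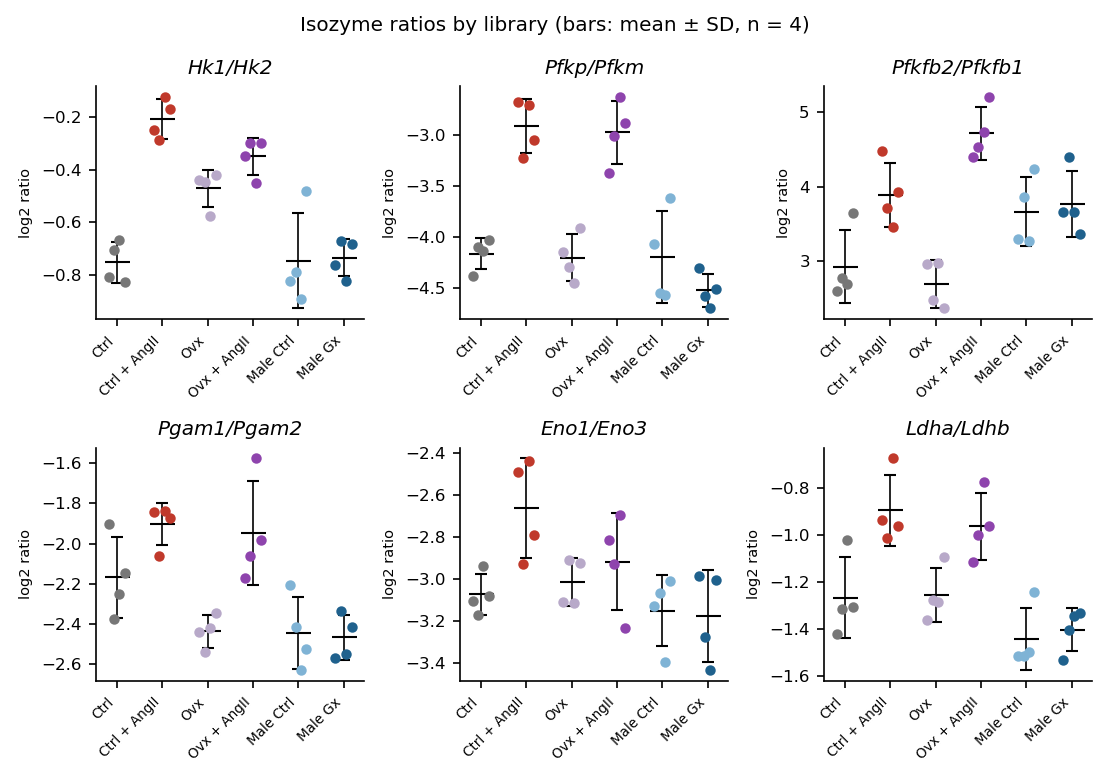
Log2 ratio of 2 isozyme genes in each library (points) of the 6 groups, with bars for the mean ± SD (n = 4). The Pfkp/Pfkm ratio is above all libraries without AngII in both AngII groups, and the mean of Hk1/Hk2 in Ovx and in Ovx + AngII lies between those of Ctrl and Ctrl + AngII.

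Markers of other cells moved with AngII too. Of 9 fibroblast markers, 5 rose in Ctrl and 3 in Ovx, and their summed value was 58739.7 to 72754 in Ctrl, 73300.0 to 89947 in Ctrl + AngII, 65721 to 71892 in Ovx and 72852 to 82041 in Ovx + AngII. Without Gsn, the most abundant of them, the sums were 22125 to 28234, 35089 to 45629, 27299 to 30815 and 37455 to 41958 in the same order. Of 10 pericyte and smooth muscle markers, 6 rose and 1 fell in Ctrl, and 1 rose and 1 fell in Ovx. Des, which cardiomyocytes also express in abundance, made up 54.6% to 70.8% of their summed value in the female libraries. The other 9 summed to 38606 to 40409.9 in Ctrl, 38552 to 41367 in Ctrl + AngII, 40155 to 44594 in Ovx and 34289 to 41539 in Ovx + AngII, with overlap in both settings. Rgs5 and Abcc9 led these 9, with medians of 16358 and 12533 over the 24 libraries. Markers at lower values, such as Tagln (median 919) and Cnn1 (median 88.7), weigh little in this sum. None of 8 endothelial markers passed in limma (0 in Ctrl and 1 in Ovx had an unadjusted p under 0.05), and 1 of 8 macrophage markers rose in Ctrl. Of 2 tested atrial markers, 1 rose in both settings (Dkk3). The other 4 atrial markers, among them Myl7, Sln and Bmp10, summed to 47.4 to 77.5 in Ctrl, 49.2 to 101 in Ctrl + AngII, 49.8 to 96.2 in Ovx and 48.7 to 62.7 in Ovx + AngII. Of the adipocyte list, Fabp4, also a gene of capillary endothelium, made up at least 98.2% of the sum and did not pass, and the other 7 summed to at most 152 in any female library. Of 12 cardiomyocyte markers, 1 rose and 2 fell in Ctrl (sum 2635390 to 3139970 without and 2660190 to 2834330 with AngII), and 3 fell in Ovx (2771810 to 2880490 without and 2575210 to 2728830 with AngII). The part of these cells in the changes of the glucose genes was not tested. In RNA of bulk tissue, fewer cells of a type and less RNA per cell cannot be told apart.

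A wider list of 128 genes of glucose metabolism (other isozymes, glycogen turnover, pentose phosphate, hexosamine and polyol pathways, NADH shuttles, insulin signalling and regulators) was read beside the members, and 121 of them were tested. In Ctrl, 6 rose and 11 fell with AngII (14% passed, median change -0.02), and in Ovx 7 rose and 16 fell (19% passed, median -0.02), beside 8.17% and 10.2% of all genes. At a mean value of 1000 or more, 14.9% of the 67 listed genes passed in Ctrl against 14.4% of all such genes, and 20.9% in Ovx against 18.1%. Slc16a7, the monocarboxylate transporter MCT2, fell in Ctrl, where it had 310.3 to 549.8 without and 125 to 232 with AngII (-1.26, adjusted p = 8.7e-04), and its change in Ovx was -0.91 (adjusted p = 0.0093). By group, 4 of 19 tested other isozymes and transporters fell in Ctrl, and 4 fell and 1 rose in Ovx. Of 24 glycogen turnover genes, 2 rose and 1 fell in Ctrl, and 2 rose and 4 fell in Ovx. Of 19 insulin signalling genes, 2 rose and 4 fell in Ctrl, and 1 rose and 3 fell in Ovx. Of 8 further genes of pyruvate use (subunits, kinases and phosphatases of pyruvate dehydrogenase, and Pcx, pyruvate carboxylase), 1 fell in Ctrl (Dld) and 2 in Ovx (Pdp1 and Pdp2). Of 23 regulators, 1 rose in Ctrl (Hif1a), and 2 rose and 2 fell in Ovx. Of 10 hexosamine and polyol genes, 1 fell in Ctrl, and 1 rose and 1 fell in Ovx. Of 10 NADH shuttle genes, 1 rose in Ctrl (Gpd1) and none passed in Ovx, where 6 had an unadjusted p under 0.05. None of the 8 pentose phosphate genes passed in limma in either setting, and 1 in Ctrl and 0 in Ovx had an unadjusted p under 0.05. Pdk4, the fasting-induced PDH kinase, ran from 6768 to 9514 in Ctrl and from 3912 to 8625 in Ctrl + AngII and did not pass (-0.45, adjusted p = 0.28).

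Whether AngII acted differently on these genes with and without ovaries was tested by the interaction term, and no member passed in limma (0.0579% of all genes did). At an unadjusted p under 0.05 there were 5 (10.4% of all genes), namely Pfkfb2, Hk1, Slc2a1, Gys1 and Pgam1. For Pfkfb2 the AngII change in Ovx exceeded that in Ctrl by 0.53 ± 0.11 (95% interval 0.30 to 0.76, adjusted p = 0.075). For Hk1 the change in Ovx minus that in Ctrl was -0.33 ± 0.07 (95% interval -0.49 to -0.18, adjusted p = 0.094). These are the members nearest the threshold: with library quality weights both passed (adjusted p = 0.022 and 0.024), as both did without Ovx library 43 (0.025 and 0.043), and Pfkfb2 passed without Ctrl library 39 (0.048) and with the values as deposited (0.0083). For Pgam1 the difference was 0.36 ± 0.16 (adjusted p = 0.46), and of the settings run, it passed only with the values as deposited (adjusted p = 0.048). For the 2 members with the widest AngII changes the interval of the difference was -0.43 to 0.30 for Pfkp and -1.12 to 0.07 for Pfkfb1. That Hk1 passed in Ctrl alone, and Pfkfb2 and Pgam1 in Ovx alone, is not shown to be a difference between the settings.

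Ovariectomy without AngII left a single call among the members, Hk1, which rose from 6363, 6243, 6253 and 5684 in Ctrl to 7266, 7725, 7421 and 7373 in Ovx (0.28 ± 0.05, adjusted p = 0.048), where 0.109% of all genes passed. The groups did not overlap, but the call lay at the threshold: it was lost without any of 11 of the 16 libraries (adjusted p up to 0.18) and in 6 of 11 other settings. Those 11 were 37, 38, 41, 44, 45, 46, 48, 51, 52, 53 and 54. An unadjusted p under 0.05 was found for 4 members (12.4% of all genes). Pfkfb2 was -0.35 (adjusted p = 0.077), Pgam1 -0.37 (adjusted p = 0.19) and Mpc1 -0.14 (adjusted p = 0.33), and each of these 3 was lower in every Ovx library than in every Ctrl library. In all, 2 members were higher and 4 lower without overlap (6.01% of all genes did not overlap, 3.45% higher and 2.57% lower). The Ctrl and Ovx libraries also serve as the controls of the AngII comparisons, so that a low value of Pfkfb2 or Pgam1 in Ovx enters both. In the same way, the Hk1 values in Ctrl enter its Ovx call, its AngII call in Ctrl and its interaction value, which are not separate evidence.

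With AngII in both groups, no member passed between Ovx + AngII and Ctrl + AngII in limma (1.01% of all genes did), and 5 had an unadjusted p under 0.05 (11.5% of all genes). Slc2a1 was at 676, 723, 730.1 and 675 in Ctrl + AngII and 522, 564, 612 and 625 in Ovx + AngII (-0.27 ± 0.08, adjusted p = 0.1), without overlap. Pfkfb1 was -0.64 ± 0.20 (adjusted p = 0.16), Gpi1 -0.16 ± 0.05 (adjusted p = 0.16), Eno1 -0.21 ± 0.09 and Pfkfb2 0.18 ± 0.08. With the values as deposited 2 members were higher, and with library quality weights 1 was lower. The median gene was shifted by 0.11 on the deposited scale in this comparison. The shares of all genes that passed at these 2 settings were not computed, so these counts have no baseline.

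Between intact males and intact females, Pfkfb2 was higher in males. It had 4784, 5045, 4344 and 4871 in Male Ctrl against 3442, 3394, 3283 and 4181 in Ctrl (0.42 ± 0.08, adjusted p = 0.0054), where 1.2% of all 13799 genes passed. Every male library lay above every Ctrl library. The deposited scale differed between the sexes, and with the values as deposited the difference was 0.06 (adjusted p = 0.49). It also missed the threshold when only these 2 groups were fitted (adjusted p = 0.069). At an unadjusted p under 0.05 there were 8 members (12.9% of all genes), among them Slc2a1 (-0.27 ± 0.07, adjusted p = 0.066), with 487 to 538 in males and 600.4 to 649.5 in females, and Pgam2 (0.17 ± 0.05, adjusted p = 0.1). Of the marker lists, 3 of 4 tested adipocyte markers were lower in Male Ctrl. The 7 adipocyte markers other than Fabp4 had low values, which summed to 95.9 to 133 in Ctrl and 7.96 to 34.2 in Male Ctrl. Also lower were 1 of 9 fibroblast markers (Lum), 1 of 10 pericyte and smooth muscle markers (Acta2) and 1 of 2 tested atrial markers (Dkk3). The part of these cells in the values of the members was not tested.

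Gonadectomy of males moved no member past the threshold in limma (0.0797% of all genes passed). Gys1 was the sole member with an unadjusted p under 0.05 (8.54% of all genes), at 5022, 4702, 4676 and 4151 in Male Ctrl and 4366, 3880.3, 3992 and 4097 in Male Gx (-0.18 ± 0.06, adjusted p = 0.4), and these values overlapped. For Pfkp the males had 1706, 1234, 1246 and 2107 intact and 1421, 1262, 1135 and 1274 after gonadectomy, and for Pfkfb1 486, 347, 451 and 259 and 336, 228, 369.6 and 388. All male libraries lay below the lowest AngII library for Pfkp (2195). The effect of gonadectomy did not differ between the sexes past the threshold for any member in limma (0.00725% of all genes passed). At an unadjusted p under 0.05 there were 3 (6.07% of all genes), namely Hk1 (-0.29 ± 0.08 males minus females, 95% interval -0.46 to -0.12), Gys1 (-0.31 ± 0.09) and Pfkfb2 (0.24 ± 0.11), with adjusted p of at least 0.51.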

How the data were processed

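Left ventricular RNA of 24 libraries (6 groups of 4) was read from a table in which the authors deposited 1 normalized signal value per gene and library. The kit was Illumina Stranded mRNA, and the submitters' processing notes name STAR, Salmon and mm10, without versions. The study's methods name STAR and DESeq2 in BaseSpace for alignment and for differential expression by the authors, and how the deposited values were normalized is not given in the sources used here. Between 7.95% and 23.1% of low values were whole multiples of 1 read (tolerance 0.01), so no count model was used. Because the groups appear to have been normalized in separate runs, the values were rescaled by the median of ratios over all 24 libraries. No column lacked a sample, 14 rows with dates as names held 0.0552% of the values, and these and 1 row without a name were left out.

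Tests used limma 3.58.1 in R 4.3.3 (lmFit, contrasts.fit, eBayes with a trend, two-sided) on log2(value + 1) for genes with a mean of at least 10, with p-values adjusted by Benjamini-Hochberg across every tested gene: 13816 in the 16 female libraries for the AngII and Ovx comparisons, and 13799 in all 24 libraries for the comparisons with males. Fold changes are on that scale, which understates the change of low genes. Levels per kb used the longest principal GENCODE M21 transcript.

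The members and lists were chosen with earlier results of these data known. Members past the study's thresholds (adjusted p at most 0.05 and a log2 change of at least 1) in any comparison, or past the adjusted p with a change of at least 0.5, were described in every library, and further members after their values were seen. Of the wider list, genes past both thresholds were named, except items that are not reported here. Alternatives changed the pseudocount, filter, scaling, weights, prior and libraries. The script was tested on simulated data.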

Additional observations from a re-analysis of the deposited data

Results flagged for a closer look

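In 9 of 192 groups of 4 libraries checked over the tested members, 1 library stood apart from the other 3 by Dixon's criterion for the gap over the range at 95%, and chance gives about 1 in 20. One was Pfkfb3, the inducible PFKFB enzyme, at 1200.2 in Ctrl library 39 against 407 to 511 in the rest. The same library had the highest summed macrophage (16826) and erythroid (56331) markers of the Ctrl group, and their part in this value was not tested. Ovx library 43 was low for Tpi1 (15686 against 17520.3 to 17743) and for Mpc2 (5039.9 against 6049.7 to 6159.6), and Male Ctrl library 33 was low for Aldoa (73347 against 76669 to 77204) and Eno1 (2575 against 2965 to 2996). Male Gx library 34 was low for Slc2a4 (10619 against 11970.5 to 12207), and Male Gx library 50 for Aldoa (72487 against 73489 to 73680.1). Dlat was high in Ctrl library 37 (10493 against 9869.9 to 9945.3) and in Ovx + AngII library 48 (10882 against 9284.6 to 9516.5).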

How the results depend on the processing

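No member reversed its direction in 602 recalculations of 22 called gene results, of which 525 kept their side of the threshold and 77 lost it. With 1 library left out at a time, the count of members lower with AngII in Ctrl ranged from 4 to 9, those past the fold threshold from 0 to 2 in Ctrl (0 without library 37) and from 1 to 2 in Ovx. In the interaction, 0 to 1 members were higher and 0 to 1 lower, and for Ovx without AngII 0 to 1 were higher and 0 to 1 lower. With the values as deposited, 22 members were lower and 1 passed the fold threshold for AngII in Ctrl, 5 were higher in the interaction, 0 were higher and 1 lower for Ovx without AngII, 2 were higher for Ovx under AngII, and 0 were higher and 30 lower in males against females. On that scale the median gene was shifted by -0.09 for Ovx without AngII and by 0.11 for Ovx under AngII. For AngII in Ctrl it was shifted by -0.28, and for Male Ctrl against Ctrl by -0.36. The shares of all genes that passed were not computed for this or the other alternative settings. These counts therefore describe the settings and are not results about the members. With library quality weights, 0 members passed the fold threshold for AngII in Ctrl, 1 was higher and 1 lower in the interaction, 1 was lower for Ovx without AngII and 1 lower for Ovx under AngII. Without a trend in the prior, 4 were lower for AngII in Ctrl. Without libraries 49 to 54, 3 were lower in Ctrl, and in Ovx 4 were lower and 2 passed the fold threshold. Without libraries 38 and 40, an alternative chosen after seeing the data, 2 were lower and 1 passed the fold threshold in Ctrl. The count of higher members for Ovx without AngII was 0 with no filter, without the trend, with all 24 libraries, without libraries 49 to 54 and without libraries 38 and 40. With only the 2 groups in the fit, 0 members were higher in males. Where another choice is not named, these counts were within 1.5 times those reported, and where no cause follows from fewer libraries or another scale, the cause was not tested. No paired analysis was possible because libraries of different groups share no replicate number. Depth is known only in relative terms, each library pools 2 mice (assumed for the males), and AngII was not given to males.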
